A study of Mus musculus with 9 samples.

Results

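The transcriptome described here is that of adult wild-type mouse haematopoietic stem cells (HSCs), the rare bone marrow cells from which all blood cells derive. It was read from the 3 wild-type arrays among the 9 of the series, chosen by their label, and covers 22180 genes with 1 symbol per probe set, each given by its brightest probe set, judged by the mean of all 9 arrays. The mice carried Bcl11a fl/fl without Mx1-Cre, so both alleles were floxed but no Cre was present, and like all mice of the study they were given poly(I:C), a double-stranded RNA mimic known to raise interferon, in 5 doses and were 6 to 8 months old. No array of mice without poly(I:C) was used here. The other 6 arrays, of heterozygous and homozygous Bcl11a deletion with Mx1-Cre, served only for the choice of probe sets, and no genotype was compared. Marrow cells were enriched for Kit (CD117) on beads and sorted as Lin-, Sca-1+, Kit+, CD48-, Flt3- and CD150+, with YFP+ or YFP- cells taken; the YFP status of each array is not stated in the labels. The labels call the replicates biological. Amplified RNA of the sorted cells, carrying biotin, was read on the Mouse Gene 2.0 ST array of Affymetrix, and all levels below are the deposited log2 RMA values, given for replicates 1, 2 and 3 in that order or as mean ± SD (n = 3).

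An HSC divides rarely, renews itself and keeps every blood lineage open. A core of transcription factors of the ETS, GATA, RUNX, TAL/LYL and HOX families is known to hold this state, while lineage factors such as the C/EBP, EBF and GATA1 proteins drive commitment. Receptors for stem cell factor, thrombopoietin, interferon and the chemokine CXCL12, together with integrins and sialomucins, tie the cell to its niche in the marrow. Textbook accounts of adult HSCs stress glycolysis, with mitochondria that are present but used sparingly, and strong defence against reactive oxygen and aldehydes.

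Genes were placed in 3 level bands. The background scale came from 1388 genes of olfactory, vomeronasal and trace amine receptors, which blood cells are not known to use. Their median was 2.30, and their 95th percentile, 4.51, was set as the top of the background band. The top 10% of all genes, with means above 6.87, formed the high band, and the middle band lay between. By these marks 2217 genes were high, 7868 (35.5%) were middle and 12095 (54.5%) were background, so that 45.5% of all genes stood above background. The counts of each list and family below are to be read against these shares: 10% of all genes were high, 35.5% middle and 54.5% background. The 99th percentile of the receptor genes was 5.87, and 4500 genes (20.3%) exceeded it. A gene with a mean between 4.51 and 5.87 therefore lay in a range that a few receptor genes reach too. Of those receptor genes 70 lay above the background mark and 5 in the high band, led by Vmn1r233 at 11.85 ± 0.30. A probe set's value depends on its probes as well as on the RNA, so the bands are broad and the order of genes within a band is not read as an order of RNA amounts.

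**Figure D1:**
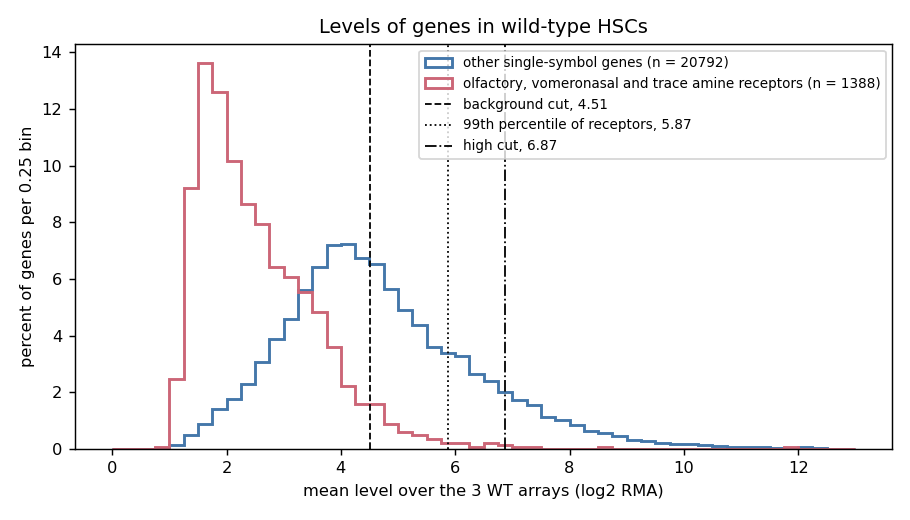
Distribution of mean levels (log2 RMA, x axis) in bins of 0.25 as percent of genes (y axis), for the 1388 olfactory, vomeronasal and trace amine receptor genes and for the other 20792 genes. Vertical lines mark 4.51, 5.87 and 6.87; the receptor genes centre near 2.30, while the other genes reach up to 12.67.

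The 3 arrays were alike but not equal. Pearson's r over the 22180 genes was 0.919 between replicates 1 and 2, 0.919 between 1 and 3 and 0.943 between 2 and 3, which is a description of arrays that share probes. Replicate 1 had the narrowest spread of probe sets, with an interquartile range of 2.22 against 2.47 and 2.69, and 2122 genes above 6.87 against 2369 and 2719. It was the array farthest from the other two for 42.4% of high, 38.2% of middle and 41.4% of background genes. Xist and Y-linked genes read as female in replicates 1 and 3 and as male in replicate 2. A count below that changes by over 1.5 times without 1 array is given with its value without that array.

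The brightest genes were those of protein synthesis and of the mitochondrial genome. Among the 25 highest were 10 ribosomal protein genes, such as Rps18 at 12.38 ± 0.05, Rplp1 at 12.30 and Rpl41 at 12.22, and 8 genes of mitochondrial DNA, such as ND4 at 12.38 and CYTB at 12.24. B2m, the light chain of MHC class I, read 12.67, 12.67 and 12.66 and led all genes. The chaperone Hspa8 (12.23), the tubulins Tuba1b (12.19) and Tuba1c (12.03) and the translationally controlled protein Tpt1 (12.09) were the others, beside the small RNA Rn7sk and the receptor gene Vmn1r233. By family, 39 of 67 ribosomal protein genes were high, 23 middle and 5 background, and 28 of 38 proteasome genes were high, led by Psmc2 at 10.22. Ribosomal protein genes have near-identical copies in the genome, so their probes may read more than the named gene.

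The DNA before the start was compared between genes of high, middle and background level where it was known. RefSeq promoters (GRCm38.p6, 250 bases before to 50 after the start) were matched for 16990 of the 22180 genes, or 76.6%. With fewer than 80% matched, any statement on whole bands is void, and the shares below, here and in the motif counts, describe the matched genes only. A promoter was called CpG-rich when its GC content was above 50% and its CpG count above 0.6 of that expected from its bases. CpG-rich promoters made up 76.4% of the 1752 matched high genes (95% Wilson interval 74.4 to 78.4), 66.2% of 6227 middle genes (65.0 to 67.4) and 25.6% of 9011 background genes (24.7 to 26.5), against 33.9% of all 27025 promoters in the table. The 27025 include promoters of genes that were not ranked, and over the 16990 matched genes the share was 45.7%. Without the receptor family that set the mark, the background share was 29.3% of 7884 genes. These intervals cover counting error only, and genes are not independent. The shares of the matched high and background genes thus stood far apart, with the middle genes nearer to the high ones.

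For a view of both ends, the 120 bases before the start of the gene with the highest and of that with the lowest level, among the matched list genes of each class, are printed 5′ to 3′ on the gene's strand, with every CG in capitals. For the transcription factors these are Myb (10.25, chr10:21160985-21161104, minus strand) and Sox2 (2.72, chr3:34649875-34649994, plus strand). For the receptors they are Adgrg1 (10.17, chr8:94976989-94977108, plus) and Lepr (2.03, chr4:101717287-101717406, plus). For adhesion they are Rap1b (10.26, chr10:117845975-117846094, minus) and Fermt1 (2.50, chr2:132946037-132946156, minus). For metabolism they are Sod1 (11.26, chr16:90220642-90220761, plus) and Slc7a11 (2.17, chr3:50443614-50443733, minus).
Myb: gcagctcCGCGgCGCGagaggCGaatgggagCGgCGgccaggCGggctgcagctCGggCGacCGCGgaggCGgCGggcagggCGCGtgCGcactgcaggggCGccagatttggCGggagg
Sox2: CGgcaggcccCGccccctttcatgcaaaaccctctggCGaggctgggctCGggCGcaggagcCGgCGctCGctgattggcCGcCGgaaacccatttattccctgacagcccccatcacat
Adgrg1: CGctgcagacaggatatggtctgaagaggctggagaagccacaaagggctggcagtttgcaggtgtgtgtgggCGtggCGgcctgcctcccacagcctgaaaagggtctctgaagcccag
Lepr: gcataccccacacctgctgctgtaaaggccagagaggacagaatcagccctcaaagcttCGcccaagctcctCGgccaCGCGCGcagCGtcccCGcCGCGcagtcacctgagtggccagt
Rap1b: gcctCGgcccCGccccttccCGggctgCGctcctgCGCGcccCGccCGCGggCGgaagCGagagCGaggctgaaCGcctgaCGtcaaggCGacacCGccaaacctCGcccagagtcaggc
Fermt1: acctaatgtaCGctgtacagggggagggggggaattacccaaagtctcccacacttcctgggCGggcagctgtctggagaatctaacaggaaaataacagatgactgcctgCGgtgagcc
Sod1: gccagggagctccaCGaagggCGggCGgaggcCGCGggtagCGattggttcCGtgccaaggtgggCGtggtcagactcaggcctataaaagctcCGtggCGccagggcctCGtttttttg
Slc7a11: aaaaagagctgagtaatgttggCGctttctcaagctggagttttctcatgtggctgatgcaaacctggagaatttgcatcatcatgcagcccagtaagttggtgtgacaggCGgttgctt
The windows of Myb, Rap1b and Sod1 held 19, 17 and 11 CG pairs, and those of Fermt1 and Slc7a11 held 3 and 2. The receptors went the other way, with 3 in bright Adgrg1 and 9 in dim Lepr, and dim Sox2 held 10. Single genes thus did not always follow these shares. Over all matched list genes of the 4 classes, 59 of 95 high (62.1%) and 40 of 98 background genes (40.8%) were CpG-rich.

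Short motifs were counted in the same promoters on either strand, where overlaps between motifs were allowed and a match is a string of letters, not a bound site. The GC box of Sp1 (GGGCGG) stood in 67.9% of high, 62.8% of middle and 31.5% of background promoters, against 35.9% of all. The ETS string CCGGAAGT was found in 10.3%, 8.14% and 2.22%, against 4.0% of all. NRF1 (GCGCATGC) was found in 7.36%, 5.12% and 2.06%, against 2.80%, and YY1 (AAGATGGC) in 5.88%, 4.79% and 1.80%, against 2.88%. These strings, most of which contain CG, were thus commoner in the promoters of brighter genes. Between the bands, the TATA box (TATAAA) went the other way at 7.19%, 7.36% and 17.8%, against 14.2%. So did the GATA string AGATAA at 5.59%, 6.28% and 13.4%, against 11.4%. The low TATA share did not hold for the very brightest genes. Among the 169 matched genes of the top 1%, TATA stood in 13.6% (Wilson interval 9.24 to 19.6) and GATA in 5.33%. Without the receptor family, the background shares were 14.6% for TATA, 11.4% for GATA, 35.9% for the GC box and 2.52% for ETS. Over the 16990 matched genes of all bands, these shares were 12.9%, 9.98%, 46.7% and 5.22% in that order. Background genes without that family thus stayed above the matched whole for TATA and GATA, and below it for the GC box and ETS. CCAAT stood at 38.0%, 38.9% and 38.3%, against 37.9%, close to equal in the 3 sets of matched genes. Of the other motifs searched, the E-box CACGTG was at 10.8%, 10.2% and 6.24% and the CRE (TGACGTCA) at 3.54% of high promoters, against 7.24% and 1.88% of all, and the ISRE core at 3.37% against 3.49%.

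**Figure D2:**
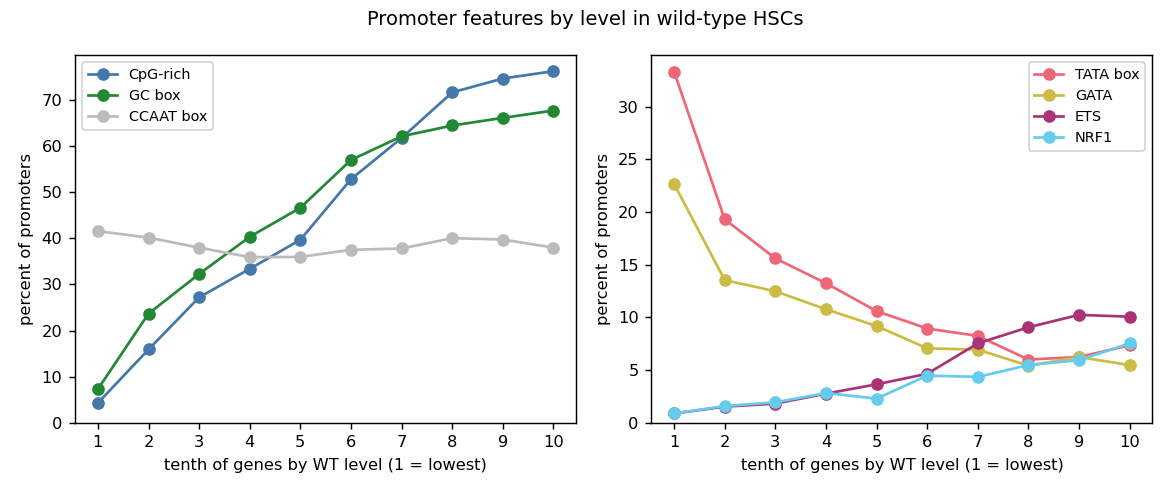
Percent of promoters (y axis) that were CpG-rich or held a motif, in 10 groups of 1699 matched genes ordered by level (x axis, 1 lowest, 10 highest). The CpG-rich share climbs from 4.30% in the lowest group to 76.2% in the highest, and the CCAAT share stays between 35.9% and 41.6%. The TATA share drops from 33.3% to 6.00% in group 8 and is 7.36% in group 10. The groups include the receptor family that set the background mark, with a median of 2.30, and the lowest group spans 0.91 to 2.54. Without that family, background genes were 29.3% CpG-rich and 14.6% had TATA, in place of 25.6% and 17.8%.

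Stem cell transcription factors stood high. Of 25 measured, 12 (48%) were in the high band and 12 in the middle band, against 10% and 35.5% of all genes, and 18 exceeded 5.87. Their median was 6.84, against 4.33 over all genes. The list was, like the others, written with earlier results of these data known, so these shares describe its members only. Myb, which keeps progenitors cycling and is needed for definitive blood formation, read 10.06, 10.38 and 10.30. Meis1, the partner of HOX proteins, read 8.5, 9.49 and 9.33. The ETS factors Etv6, required for adult HSC survival, at 8.16, 9.49 and 9.34, and Fli1, at 8.76, 9.20 and 8.93, followed. All of these were above 6.87 on every array, as were the repressor Gfi1b (8.53 ± 0.46), Erg (7.6, 8.65 and 8.84), the adaptor Ldb1 (6.98, 8.81 and 8.83), Runx1 (8.20 ± 0.47) and the adaptor Lmo2 (7.72 ± 0.48). Lmo2 and Ldb1 join in a complex with Tal1 or Lyl1, which were middle at 6.05 ± 1.01 and 6.36 ± 0.64.

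Some stem cell factors depended on the array. Gata2, a zinc finger factor that HSCs need to persist, read 5.13, 8.22 and 8.17, so that replicate 1 was in the middle range and the other arrays were high. Hlf, a factor much used to mark HSCs, read 6.31, 8.27 and 7.56. Tal1 read 4.93, 6.34 and 6.88, and Mecom, whose EVI1 product supports self-renewal, 5.65, 6.53 and 7.12, with its other probe set at a mean of 4.78. Replicate 1 was the lowest array for each. Over the 25 genes, the mean level was 6.48, 7.29 and 7.23 on the 3 arrays. What sets replicate 1 apart was not tested.

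Of the 36 Hox genes measured, none was high, 11 were middle and 25 were background. The brightest were Hoxa9 at 7.61, 6.89 and 6.02, Hoxb4 at 6.62 ± 0.35, Hoxb6 at 6.48 and Hoxa6 at 6.32, and these 4 alone exceeded 5.87. Hoxa9 was just under the high band, and its lowest array was replicate 3, without which 2 Hox genes were high. Hoxa10 was the 1 stem cell factor in the background band, at 4.24, 4.19 and 4.38, and Hoxb5, used as a marker of long-term HSCs, read 5.26 ± 0.35. Every measured Hoxc gene was background, from Hoxc10 at 4.01 to Hoxc5 at 2.37; these were named after their values were seen.

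Of the transcription factor families counted, the ETS family had the most high members: 9 of 25 measured were high, 8 middle and 8 background. Elf1 read 9.23, 8.97 and 9.15, and Etv5, a MAP kinase target, 7.97, 8.33 and 8.79. The epithelial members Elf3 (2.93), Elf5 (2.89) and Ehf (3.20) were background, as was the lymphoid Spib (3.13). Spi1 (PU.1), which directs myeloid and lymphoid fate, was middle at 6.28, 6.64 and 6.29. In other families the high members were 1 of 19 Sox genes (Sox4 at 8.60, 7.73 and 8.69), 1 of 43 forkhead genes (Foxp1 at 7.15 ± 0.64), 1 of 38 nuclear receptors (Nr2c2 at 7.56 ± 0.06), 2 of 6 Stat genes, 2 of 7 Irf genes and none of 17 Klf genes. Without replicate 2 no forkhead gene was high, and without replicate 2 or 3 the high Irf genes were 1. Above background were all 6 Stat, 14 of 17 Klf, 5 of 15 T-box and 6 of 13 Nkx genes, against 45.5% of all genes, but above 5.87 only 5 Stat and 2 Klf genes and no T-box or Nkx gene.

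Of 30 factors of committed lineages measured, 6 were high, 9 middle and 15 background, with a median of 4.57; 50% were above background, near the 45.5% of all genes. Bcl11a, the zinc finger repressor that the study deletes, read 8.73, 8.81 and 8.38 by its brighter probe set and a mean of 7.13 by the other, so it was high by both. The E proteins Tcf12 (7.49 ± 0.06), Tcf3 (7.12 ± 0.42) and Tcf4 (7.11 ± 0.59) were high, with Zfpm1, the GATA1 cofactor, at 7.27 ± 0.30 and Ikzf1, the founder of the Ikaros family, at 7.03 ± 0.35. Cebpa, the switch to granulocytes and monocytes, read 3.64, 3.71 and 3.07. Gata1, the erythroid and megakaryocytic factor, read 4.07, 4.08 and 4.53, and Ebf1, the B cell factor, 3.58, 3.30 and 3.14. None of these reached the middle band by its mean, nor did Cebpe (4.12 ± 0.34). Pax5 at 4.85 ± 0.30, Irf8 at 4.71 ± 0.65 and Klf1 at 4.88 ± 0.36 stood between 4.51 and 5.87. The other probe set of Irf8 was background at a mean of 4.07.

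Signal and stress factors were mostly middle: 7 of 48 high, 30 middle and 11 background, with a median of 5.70. Without replicate 1, 11 were high. Atf4, the effector of the integrated stress response, read 10.18, 9.97 and 9.51. Myc read 9.25, 9.36 and 9.35, and its partner Max 8.90, 9.39 and 9.28. These 3 genes were high on every array. Nfe2l2 (NRF2), the master factor of antioxidant genes, read 8.14, 8.83 and 7.72, Stat4 7.71 ± 0.62, Smad2 7.69 ± 0.95 and Stat3 7.45 ± 0.20. Of the immediate early genes, which dissociation of tissue is known to raise, Jun (6.52 ± 1.11), Junb (6.37) and Egr1 (5.95 ± 0.57) were middle and above 5.87. Fos (4.84 ± 0.36) and Atf3 (4.55 ± 0.31) were in the lower middle band, and Fosb (4.39) and Egr2 (4.04) were background. These immediate early genes were named after their values were seen. Hif1a, the hypoxia factor, was middle at 6.38 ± 0.43 by its brighter probe set, while its other, at a mean of 4.51, lay at the background mark. Nfkb2 (4.39 ± 0.17), Relb (4.27 ± 0.21) and the Notch target Hes1 (4.44 ± 0.38) were background. Creb1 read 5.33, 7.45 and 7.66 and Rbpj, the Notch effector, 8.31, 4.81 and 5.61, so that replicate 1 stood apart in opposite directions.

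As a check on the scale, 18 factors of other tissues were read. None was high, 6 were middle and 12 background, with a median of 3.90. The brightest were Neurog2, a neuronal factor, at 5.53, 5.65 and 4.95 and Myod1, the muscle factor, at 5.04, 5.47 and 4.96; Foxa2 was at 4.66 and Myog at 4.72. Pax6 (3.45), Neurod1 (2.74) and the pluripotency factor Sox2 (2.51, 3.14 and 2.52) were background. No member passed 5.87. Levels between 4.51 and 5.87 thus include factors of neurons and muscle, and are given as values only.

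**Figure D3:**
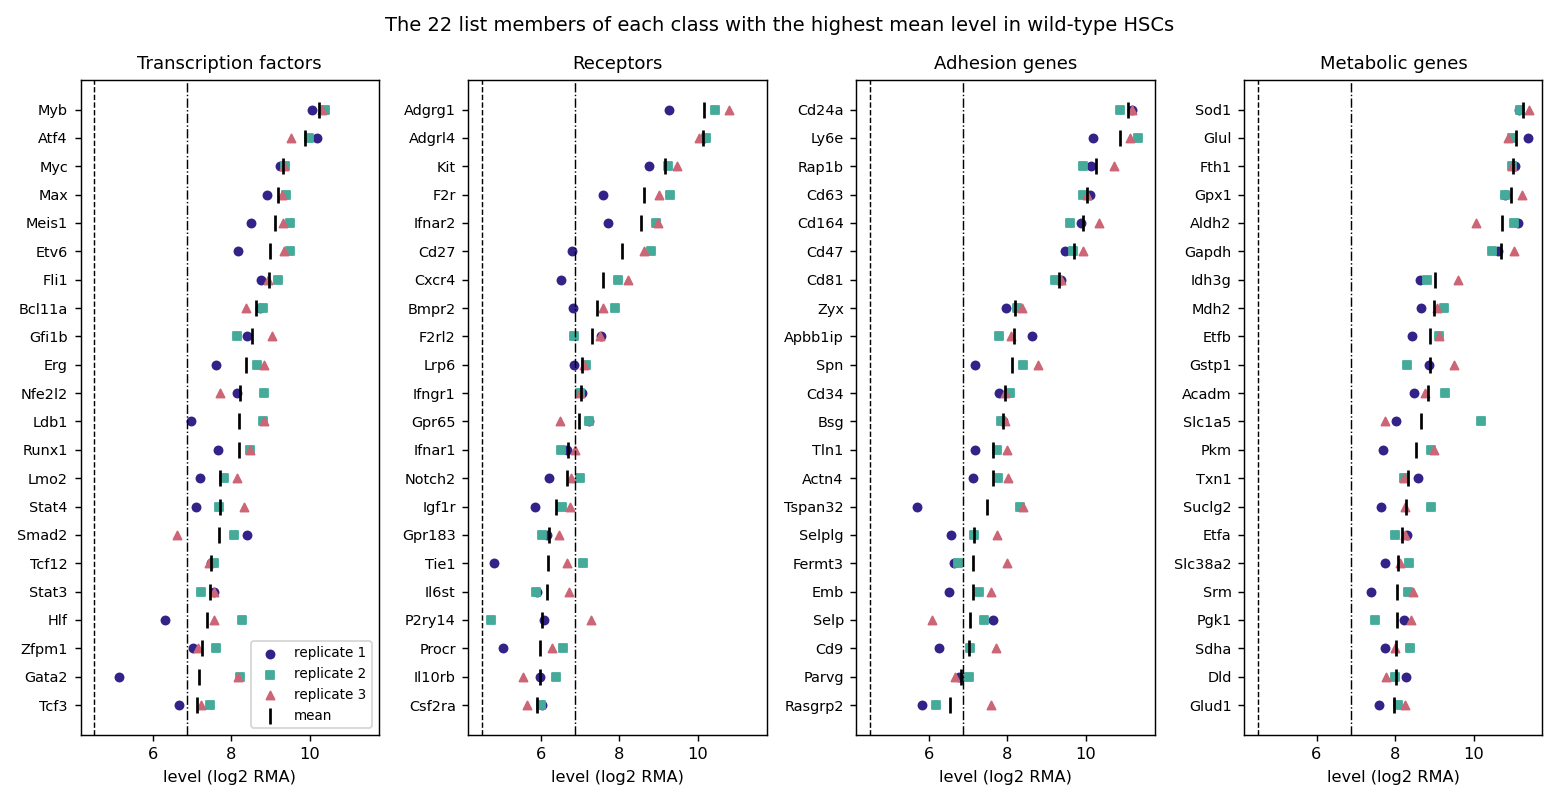
Level (log2 RMA, x axis) on each of the 3 wild-type arrays (symbols) with the mean (tick) for the 22 list members of each class with the highest mean; dashed and dash-dotted lines mark 4.51 and 6.87. Myb, Adgrl4, Cd24a and Sod1 hold together on all arrays, while replicate 1 lies below the others for genes such as Gata2, Cd27 and Tspan32.

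Receptors were dimmer as a class than the other classes listed: 12 of 111 measured (10.8%) were high, against 10% of all genes, 53 middle and 46 background. Among 23 haematopoietic cytokine receptors the 1 high gene was Kit, the receptor of stem cell factor, at 8.75, 9.25 and 9.47. The beads and the gate selected for this protein. Il6st (gp130), the shared subunit of the interleukin 6 family, read 5.90, 5.89 and 6.72, Il10rb 5.97 ± 0.43 and Csf2ra 5.90 ± 0.21, all just above 5.87. Csf3r, the G-CSF receptor, read 4.85, 6.33 and 5.91. Flt3, against which the cells were sorted, read 4.99, 3.99 and 5.36, on both sides of the background mark. Il7r (2.89, 2.22 and 2.67), the receptor of lymphoid progenitors, Epor (4.22 ± 0.21) and Csf1r (4.30 ± 0.36) were background. Over all 37 interleukin receptor genes 1 was high, Il17ra at 7.94, 6.66 and 8.14, and 25 were background.

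Of 19 receptors for interferon, TNF and Toll-like signals 3 were high, 9 middle and 7 background. Ifnar2 read 7.72, 8.93 and 9.0, and Ifnar1, its partner in the type I receptor, 6.68, 6.51 and 6.87. For interferon gamma, Ifngr1 was high at 7.06, 7.0 and 7.01 and Ifngr2 middle at 5.43 ± 0.08. Type I interferon is known to act on HSCs after poly(I:C), through Ifnar1 and Ifnar2. Cd27, a TNF receptor found on HSCs and on early lymphoid cells, read 6.80, 8.82 and 8.63, lowest in replicate 1. The TNF receptors Tnfrsf1a (4.90 ± 0.16) and Tnfrsf1b (4.89 ± 0.16) were in the lower middle band. None of 12 Toll-like receptor genes was high and 9 were background, Tlr3, a sensor of poly(I:C), at 3.17 ± 0.78 among them. Fas read 2.51 ± 0.26 and Tlr1 2.68 ± 0.10.

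Growth factor and morphogen receptors gave 2 high genes of 40, with 21 middle and 17 background. Bmpr2, the type II BMP receptor, read 6.82, 7.89 and 7.59 and the Wnt coreceptor Lrp6 read 6.86, 7.16 and 7.11. Both had replicate 1 at the edge of the high band, and the other probe set of Lrp6 was middle at 6.86. Notch2 (6.67 ± 0.41) and Igf1r (6.39 ± 0.47) were middle. Tie1, an endothelial and HSC receptor, read 4.82, 7.09 and 6.68, and its relative Tek, the receptor of angiopoietin, 3.28, 4.64 and 5.26, so the background call of Tek rests on replicate 1. Procr (EPCR), a surface marker of mouse HSCs, read 5.05, 6.58 and 6.30. For the TGF-beta pathway, Tgfbr1 was at 5.49 ± 0.34 and Tgfbr2 at 4.74 ± 0.73. The type I BMP receptors Bmpr1a (3.06 ± 0.24), Bmpr1b (2.42 ± 0.24) and Acvr1 (3.84 ± 0.23) were background, as were 7 of 10 frizzled and 10 of 13 Eph receptor genes. Without replicate 3, 1 frizzled gene in place of 3 was above background.

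Of 29 G protein-coupled receptors 6 were high, 12 middle and 11 background. Adgrg1 (GPR56), an adhesion receptor of HSCs, read 9.26, 10.45 and 10.79, and Adgrl4 (ELTD1), known from endothelium, 10.15, 10.21 and 10.04. They were 2 of the 3 high genes among 24 adhesion G protein-coupled receptors, a high share near the 10% of all genes, and 15 were background. The thrombin receptor F2r read 7.59, 9.29 and 9.02 and its relative F2rl2 7.30 ± 0.38. Cxcr4, which holds HSCs in the marrow through CXCL12, read 6.53, 7.98 and 8.23. Replicate 1 was lowest for Adgrg1, F2r and Cxcr4. Gpr65, a sensor of acid, was at 6.98 ± 0.42. Cxcr4 was the 1 high gene of 21 chemokine receptors; 14 were background, with Ccr1 at 3.38, Ccr2 at 3.73 and Ccr9 at 3.81. S1pr1, which guides exit from the marrow, read 5.15 ± 0.79, and Cxcr2 5.21 ± 0.23.

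Of 70 adhesion genes 20 (28.6%) were high, against 10% of all genes, with 25 middle and 25 background. Of 22 sialomucins, glycoproteins and tetraspanins 11 were high, with a median of 6.62. Cd24a, a small mucin-like protein, read 11.18, 10.87 and 11.19, and Ly6e, a GPI-anchored relative of Sca-1, 10.19, 11.34 and 11.12. The tetraspanin Cd63 read 10.11, 9.94 and 10.03, and the sialomucin Cd164, linked to homing, 9.87, 9.61 and 10.35. All 4 were high on every array. Cd34, which mouse long-term HSCs carry at a low surface level, had RNA at 7.79, 8.07 and 7.95. Cd9 was high by 1 probe set (6.27, 7.06 and 7.72) and background by the other, at 4.12. Tspan32 read 5.70, 8.32 and 8.41. Emcn (endomucin) and Cd37 were middle at 6.19 ± 0.71 and 6.23 ± 0.72. Thy1 (4.50 ± 0.61), Prom1 (3.20 ± 0.37) and Podxl (3.83 ± 0.10) were background. The mean over the 22 members was 6.64, 7.21 and 7.31, lowest in replicate 1.

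Selectins, immunoglobulin-like and junction molecules were the dimmest adhesion list, with 3 high, 10 middle and 16 background of 29 and a median of 4.42. Cd47, the signal that spares cells from macrophages, read 9.48, 9.68 and 9.93. Selplg, the ligand of P-selectin, read 6.57, 7.16 and 7.75 by 1 probe set and a mean of 5.35 by its other, and Selp (P-selectin) itself 7.64, 7.40 and 6.09. Each of the last pair had 1 array below 6.87. Jam2 (4.58 ± 0.61) and L1cam (4.57 ± 0.36) were just above background, and Esam, another HSC marker, read 4.16, 5.98 and 4.47. Vcam1 (3.91 ± 0.25), Sele (3.15 ± 0.23) and Icam1 (4.42 ± 0.56) were background. Of the cell-cell junction families, 20 of 23 cadherin and 18 of 23 claudin genes were background, against 54.5% of all genes, and none was high. Without replicate 3, 1 cadherin gene in place of 3 was above background. Cdh2, the N-cadherin gene, read 2.85, 3.19 and 3.19.

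Of 25 integrin subunit genes 3 were high, 6 middle and 16 background; 12% were high and 36% above background, against 10% and 45.5% of all genes. Itga4 read 7.42, 7.91 and 7.98, Itgb1 7.34, 7.45 and 7.61, and Itga6 6.22, 7.22 and 7.56. The first pair forms VLA-4, the receptor for VCAM1 and fibronectin, and Itga6 with Itgb1 forms a laminin receptor. Itgb2, of leukocyte integrins, was middle at 6.57 ± 0.66 and Itga2b, of platelets, at 6.16 ± 0.44, and these 5 genes alone exceeded 5.87. Itgam, a lineage marker of myeloid cells, was background at 3.83 ± 0.26. Of 19 adaptors 6 were high, such as the small GTPase Rap1b at 10.13, 9.93 and 10.73, Zyx at 8.20 ± 0.21, Apbb1ip (RIAM), which carries talin to integrins, at 8.18 ± 0.42 and Tln1 at 7.64 ± 0.42. The kindlin of blood cells, Fermt3, read 6.65, 6.76 and 7.99, while Fermt1 (2.50 ± 0.28) and Fermt2 (4.29 ± 0.26) were background. Tln2 (4.14 ± 0.24) was background, Parvg read 6.82 ± 0.18, and Parva and Parvb, named here after their values were seen, read 3.92 and 3.59.

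Among the listed genes, the metabolic class was most often above background, 173 of 199 (86.9%) against 45.5% of all genes, with 54 high. The class shares depend on which genes were listed, and the transcription factor lists include the factors of other tissues. Metabolic families taken by symbol ranged from 14.1% of cytochrome P450 genes and 38.9% of solute carriers above background to 96.9% of complex I genes. The tricarboxylic acid cycle had the highest share in the high band of all lists, 14 of 25 (56%), and a median of 7.05. Idh3g, a subunit of isocitrate dehydrogenase, read 8.64, 8.81 and 9.61, Mdh2 8.66, 9.25 and 9.06, Suclg2 8.27 ± 0.64 and Sdha 8.04 ± 0.32. All 4 were high on each array. Ogdh and Idh3a were middle at 6.78 ± 0.56 and 6.76 ± 1.25. Pcx, which feeds pyruvate into the cycle as oxaloacetate, was the 1 gene in background, at 4.11 ± 0.54. High shares were larger still in the respiratory chain, where 24 of 32 complex I genes, 10 of 17 cytochrome c oxidase genes and 12 of 17 ATP synthase genes were high. Ndufa4 read 10.52, 10.37 and 10.42, Cox6a1 10.41, 10.33 and 11.01, and Atp5l 11.73, 11.29 and 11.32. Of the cytochrome c oxidase forms known from muscle or testis, Cox7a1 (3.75), Cox8b (3.65) and Cox7b2 (1.97) were background, whereas the testis form Cox6b2 was high at 6.81, 8.08 and 8.44; these 4 were named after their values were seen.

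Glycolysis was divided, with 7 of 24 high, 13 middle and 4 background and a median of 5.27. Its list holds forms known from muscle and neurons, such as Pgam2 and Eno2. Its shares and those of the cycle are therefore not like for like. Gapdh read 10.63, 10.47 and 11.03, Pkm, the pyruvate kinase of most tissues, 7.69, 8.91 and 8.98, Pgk1 8.04 ± 0.49 and Tpi1 7.42 ± 0.58. Among genes that steer glucose carbon, Pdk1, which inhibits pyruvate dehydrogenase, read 7.37, 6.80 and 7.27 by 1 probe set and a mean of 5.61, in the middle band, by its other. Pdk2 was middle (5.33 ± 1.08) and Pdk4 background (3.92 ± 0.28). Hexokinase Hk2 read 5.21 ± 0.14, and the background genes included Pgam2 and Eno2, forms of muscle and neurons, at 4.03 and 4.19. Ldhb read 5.78, 7.11 and 6.68 and Ldha 4.62, 4.82 and 5.04; this pair was named after its values were seen, and probe sets of different genes cannot be ranked by RNA amount. The glucose transporter Slc2a1 was middle by 1 probe set (6.44, 6.83 and 6.49) and background by its other, at 3.34.

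Pentose phosphate and nucleotide genes were all above background, 8 high and 14 middle of 22, with a median of 6.30. Rrm1, the large subunit of ribonucleotide reductase, read 7.94 ± 0.82, the purine enzymes Paics 7.92 ± 0.36, Gart 7.90 ± 0.40 and Ppat 7.45 ± 0.63. Gart was high by 1 probe set and middle by another. Tyms, for thymidylate, was middle at 6.39 ± 0.57, and so was Adk, at 6.22 ± 0.40. These enzymes supply DNA and RNA synthesis.

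Fatty acid oxidation gave 7 high, 9 middle and 4 background genes of 20, with a median of 5.98. The electron carriers Etfb and Etfa read 8.89 ± 0.40 and 8.19 ± 0.17, and the medium-chain dehydrogenase Acadm 8.49, 9.27 and 8.77. Hadha, a subunit of the trifunctional protein, read 7.43 ± 0.07, but its partner Hadhb was background at 3.39 ± 0.41. Cpt2 and Acadvl were middle at 6.04 ± 0.54 and 5.91 ± 0.60. Ppara (3.74 ± 0.43) and the carnitine carrier Slc25a20 (4.38 ± 0.27) were background. Lipid and sterol synthesis was middle in 15 of 21 genes, with Srebf2, the regulator of sterol genes, at 7.05, 8.12 and 8.20, Elovl1 at 7.32 ± 0.31 and Fads2 at 6.90 ± 0.80. Scd1 (3.44 ± 0.20), Acacb (3.58 ± 0.29) and Lss (4.33 ± 0.06) were background.

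Amino acid and one-carbon enzymes had 3 high genes of 21, among which Glul, glutamine synthetase, stood out at 11.38, 10.98 and 10.87. Srm, for spermidine, read 8.06 ± 0.59 and Glud1 7.98 ± 0.34. Mthfd2 (4.45 ± 0.17), Bcat1 (4.23 ± 0.10) and Arg1 (4.11 ± 0.50) were background, while Bcat2 (5.56 ± 0.32) and Shmt1 (5.41 ± 0.70) were in the lower middle band. Among 20 nutrient transporters 4 were high, all carriers of amino acids. Slc1a5 read 8.02, 10.20 and 7.74, with replicate 2 apart, Slc38a2 8.08 ± 0.31, Slc38a1 7.44 ± 0.52 and Slc7a5 7.09 ± 0.51. Slc7a11, the cystine carrier, was among the dimmest of all list genes at 2.33, 2.06 and 2.12, and Slc2a4, the insulin-responsive glucose carrier, read 4.16 ± 0.12. Of 352 solute carrier genes in all, 17 were high and 215 background; the mitochondrial ADP/ATP carrier Slc25a5 (9.06 ± 0.51) and the vesicular monoamine carrier Slc18a2 (8.08, 9.36 and 9.10) led them.

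Antioxidant and aldehyde defence was above background in 29 of 31 genes, 7 of them high, with a median of 6.28. Sod1, the cytosolic superoxide dismutase, read 11.17, 11.19 and 11.41. Gpx1, a glutathione peroxidase, read 10.80, 10.81 and 11.24, and Aldh2, which clears aldehydes in mitochondria, 11.12, 11.03 and 10.06. Of the last pair Aldh2 had its low array in replicate 3. Gstp1 followed at 8.89 ± 0.59. Aldh1a1, whose activity is used to sort stem cells, was high at 7.68 ± 0.21, a gene named after its value was seen, and its relative Aldh1a7 background at 3.0 ± 0.24. Sod2 and Gclm were middle at 6.28 ± 0.62 and 6.25 ± 0.82, and the NRF2 target Nqo1 was background at 2.95 ± 0.49. In haem and iron handling, 1 of 15 genes was high, the ferritin heavy chain Fth1 at 11.05, 10.98 and 10.99. Without replicate 2, 2 were high. Urod (6.54 ± 0.72), Slc25a37 (6.43 ± 0.43) and Alad (6.17 ± 0.51) were middle, and the iron exporter Slc40a1 (4.45 ± 0.29) and Uros (4.11 ± 0.33) background. Of 92 cytochrome P450 genes 79 were background and none was high.

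**Figure D4:**
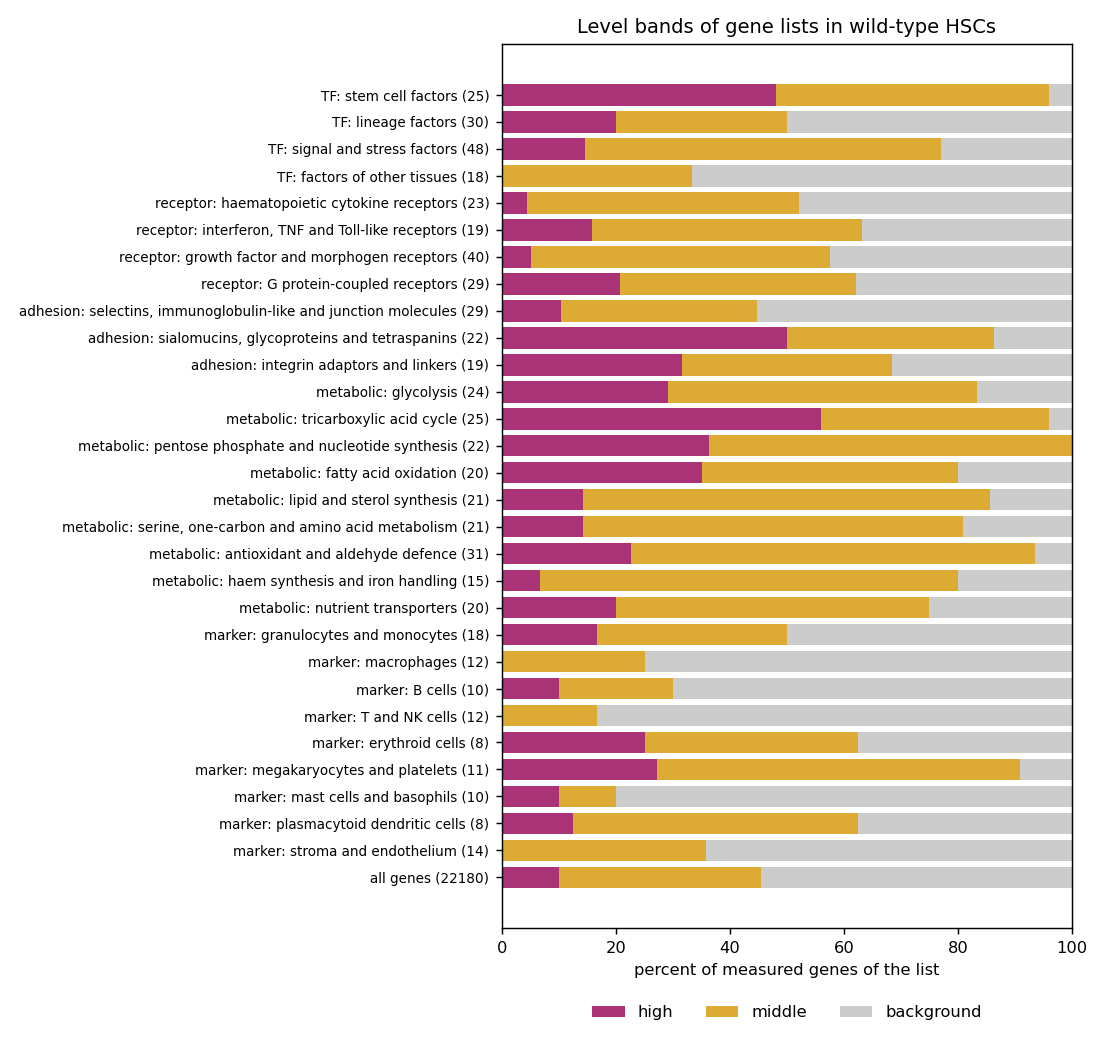
Percent of the measured genes of each list (x axis) in the high, middle and background bands; the number of genes stands in brackets, and the last bar is all 22180 genes. The tricarboxylic acid cycle (56.0% high), sialomucins and tetraspanins (50%) and stem cell factors (48.0%) have the longest high bars, and T and NK cell markers the shortest part above background (16.7%).

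The genes of the sort gate were read as a check of the label. Kit was high, and so was Ptprc (CD45), the general blood cell marker, at 8.57, 8.86 and 8.89. Slamf1, which encodes CD150, read 4.64, 4.67 and 6.71, so that only replicate 3 exceeded 5.87. Cd48, against which the cells were sorted, read 4.83, 3.63 and 4.57. It was background by its mean of 4.34, with replicates 1 and 3 above 4.51. Flt3, also sorted against, was middle by its mean of 4.78. The lineage genes Cd3e (3.44 ± 0.13), Cd8a (4.07 ± 0.02), Cd4 (4.40 ± 0.29), Cd79a (3.68 ± 0.22), Itgam and Ly6g (2.96 ± 0.27) were background. Fcgr2b (5.0 ± 0.38) and Fcgr3 (4.54 ± 0.35), whose proteins were blocked with antibody before the sort, stood between 4.51 and 5.87. The gene of Sca-1 is not analysed here. The RNA of the positive marker CD150 thus exceeded the 99th percentile of the receptor genes on 1 array of 3.

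The markers of other marrow cells differed by list: the share above background ran from 16.7% for NK and T cells and 20% for basophils and mast cells, over 25% for macrophages, 30% for B cells, 35.7% for stroma and endothelium and 50% for granulocytes and monocytes, to 62.5% for erythroid and for plasmacytoid dendritic cells and 90.9% for megakaryocytes, against 45.5% of all genes. Above 5.87 stood 2 of 8 erythroid, 2 of 8 plasmacytoid dendritic, 5 of 11 megakaryocyte and 4 of 18 granulocyte and monocyte markers. Each other marker list had 1 gene above 5.87, and over all genes the share was 20.3%. The order of the lists thus depends on the mark. In a bulk sort fewer cells of a type and less RNA per cell cannot be told apart. For granulocytes and monocytes 3 of 18 were high, 6 middle and 9 background. Lyz2 (lysozyme) read 9.22, 9.20 and 9.46, S100a8 8.97, 8.59 and 8.42 and S100a9 9.16, 8.40 and 8.06. These genes were high on each array. The median over the list was 4.85, 4.68 and 4.13. The granule genes were lower: Prtn3 6.13 ± 0.14, Mpo 5.43 ± 0.67, Ngp 5.24 ± 0.91, Cd177 4.74 ± 0.12, Elane 4.61 ± 0.37, Ltf 4.36 ± 0.42, Ctsg 4.23 ± 0.75 and Camp 3.92 ± 1.18, and Ly6g was background. For macrophages none of 12 was high, or 1 without replicate 3; Cd68 read 7.53, 6.10 and 5.06, C1qa 5.23 ± 0.33 and C1qb 5.03 ± 0.30, and Adgre1 (F4/80) was background at 3.93 ± 0.59.

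Of 8 erythroid markers the 2 carbonic anhydrases were high: Car2 read 10.08, 10.22 and 10.78 and Car1 9.49, 7.73 and 8.81, while Slc4a1 (4.97 ± 0.30), Klf1 and Ermap (4.77 ± 0.20) were below 5.87 and Epor, Tspo2 (4.37 ± 0.40) and Rhag (4.35 ± 0.53) background. The globin genes are not analysed here. Megakaryocyte and platelet markers were above background in 10 of 11 genes. Pf4 read 8.56, 8.05 and 9.60, F2rl2 and Selp were high, Itga2b and Gp9 were at 6.16, Vwf read 5.12, 5.55 and 5.99, Itgb3 5.41 ± 0.32, Treml1 5.18 ± 0.40, Gp6 4.68 ± 0.07 and Thbs1 4.58 ± 0.71, but Ppbp was background at 3.97 ± 0.13. Several of these genes are known from HSCs themselves as well as from platelets. Among B cell markers, the MHC class II gene H2-Ab1 was high at 7.75, 8.96 and 8.27 and Cd79b middle at 6.25, 4.63 and 6.63, while Cd79a, Ms4a1 (2.63 ± 0.04) and Ebf1 were background. Among T and NK markers 10 of 12 were background; Nkg7 read 5.96, 6.17 and 7.87, high without replicate 1 or 2, and Prf1 5.16 ± 0.07. Mast cell and basophil markers were background in 8 of 10, the exceptions being Gata2, itself a stem cell factor and not high without replicate 2 or 3, and Il13 at 4.67 ± 0.43. Among plasmacytoid dendritic cell markers Tcf4 was high and Bst2, an interferon-induced gene, read 6.78 ± 0.35. Ly6d (4.67 ± 0.37), Irf8 by its brighter probe set and Siglech (4.52 ± 0.21) were just above background. Without replicate 2, 3 of the 8 markers in place of 5 were above background, and without replicate 3, 2 in place of 1 were high. No stromal or endothelial marker of 14 was high, and 5, or 3 without replicate 3, were above background: Emcn and Pecam1 (5.49 ± 0.56) are known from HSCs too, Cxcl12 (4.60 ± 0.31), Col1a1 (4.53 ± 0.32) and Col1a2 (4.52 ± 0.27) were at the edge of background, and Lepr (2.03 ± 0.39), Kitl (2.74 ± 0.14) and Col3a1 (4.26 ± 0.20) were in it. The part of other cells in these levels was not tested.

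Levels varied between the 3 arrays by a like amount in both upper bands. The median SD over the arrays was 0.398 for high, 0.403 for middle and 0.268 for background genes, and an SD above 1 was found for 129 high (5.82%), 640 middle (8.13%) and 153 background genes (1.27%). Apart from Xist and Y-linked genes, which follow sex, the 15 genes with the largest SD above background were mixed in kind and included 5 small nucleolar or Cajal body RNAs and 2 microRNAs. H1f5, a linker histone, read 2.52, 9.79 and 8.66, Ormdl2, a regulator of sphingolipid synthesis, 2.85, 7.72 and 9.44, and Fundc2 2.70, 5.74 and 7.56, all lowest in replicate 1. Ndc80, a kinetochore protein, read 7.60, 3.15 and 7.30 and Arsb, a lysosomal sulphatase, 8.04, 3.89 and 7.70, lowest in replicate 2. Zfp825 read 4.34, 5.39 and 8.80. The band of such a gene is that of its mean and does not hold on every array. Over all genes, 7981 were above 4.51 on all 3 arrays, 3910 on some and 10289 on none, and 1541 were above 6.87 on all 3 and 1831 on some.

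Genes next to a mark show how thin the line between bands is. Just under 4.51 were Thy1 (4.50), Slc25a38 (4.48), Madcam1 (4.48), Fzd7 (4.46) and Slc40a1 (4.45), and just above it Mvk (4.51), Sod3 (4.53), Impdh1 (4.53), Fzd4 (4.53) and Atf3 (4.55). Just under 6.87 were Hoxa9 (6.84), Parvg (6.82), Nfe2 (6.82), Creb1 (6.81) and Etfdh (6.80), and just above it Fads2 (6.90), Dlst (6.90), Pgam1 (6.91), Pdk3 (6.91) and Prps1 (6.94). Their distance from the mark was smaller than the SD for all of them. Of the 40 list genes with several probe sets, 25 fell in the same band by the brightest and the next one. Rbpj at 6.24 and 4.30, Il1rap at 4.78 and 2.78 and Pgam1 at 6.91 and 4.83 were among those that did not.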

How the data were processed

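Sorted HSCs were profiled on 1 Affymetrix Mouse Gene 2.0 ST array per replicate; the labels call the replicates biological and do not say whether mice were pooled. The deposited values were log2 levels per probe set that the authors made with RMA, per the submitters' processing notes, with version, settings and build not given in the sources used here. RMA subtracts background, makes the arrays comparable and sums up each set's probes, so that dim levels are compressed. Amplification of little RNA, per the labels' protocols, can add spread between arrays. The number of arrays, 3, limits the precision.

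Of 41345 probe sets, 23521 had 1 gene symbol, 1814 several and 16010 none in the platform annotation; symbols were matched to RefSeq by gene ID for 23328 and not for 193. The brightest probe set by the mean of all 9 arrays stood for each of 22180 genes, 1082 of which had several. Means and SDs over the 3 wild-type arrays were computed with pandas 2.3.3 and numpy 2.4.6 in Python 3.11.15, and figures were drawn with matplotlib 3.10.9. No test was run, since levels in 1 group give no comparison. Lists were written from textbook knowledge and families taken by symbol; the members and lists were chosen with earlier results of these data known. Genes named were, per list, up to 4 highest, the 2 middle genes nearest the list median and up to 3 background genes first in the list, per family up to 4 highest, the 25 highest genes, the 15 of largest SD above background (Xist and Y-linked genes apart), 5 list genes beside each mark, Bcl11a, and every gate and marker gene above background. Genes named outside this rule either are said to be so or stand beside a named gene of the same family, pathway or array pattern, and were then also chosen with their values known. List genes that are not measured above are not analysed here. Sequences and promoters come from RefSeq (GRCm38.p6); where a gene had several promoters (2654 genes), the first in the table was used. Wilson intervals are at 95%. Alternatives changed the marks, the probe set, the normalization and the arrays used.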

Additional observations from a re-analysis of the deposited data

How the results depend on the processing

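No paired analysis was possible because the results are levels of 1 group and come from no test. With the background mark at the 99th percentile of the receptor genes, 4500 genes stood above background, among them 50 transcription factors, 23 receptors and 106 metabolic genes, in place of 10085, 82, 65 and 173; the mark at the 25th percentile of all genes gave 16622 genes. With the mark at the highest factor of other tissues, chosen after seeing the data, 6058 genes and 32 receptors stood above. A high band of the top 5% held 14 transcription factors, 6 receptors, 12 adhesion and 32 metabolic genes, and one of the top 20% held 48, 22, 31 and 105, in place of 25, 12, 20 and 54. For promoters, the TATA share of the top 5% was 8.79%. The background shares with the 99th percentile mark were 37.8% CpG-rich, 3.89% ETS and 14.5% TATA. Over genes with 1 promoter entry, an alternative chosen after seeing the data, they were 24.3% CpG-rich and 18.9% TATA. Leaving out 1 array moved the share of genes above background to between 40.7% and 46.9%. Without replicate 1, 2 or 3, 5, 8 and 12 of the list and family counts moved by over 1.5 times; those that the report prints stand beside their counts there, and the others are of the Ikaros, Id, aldehyde dehydrogenase, Gata, glutathione S-transferase and TNF receptor families and the sort gate. It kept between 534 and 548 of the 581 list and marker genes in the same band. In no alternative run did any of the 581 pass between the high and the background band. Runs that moved only 1 mark could not produce such a pass. No run used the dimmer probe set of a gene alone, by which Cd9 would go from high (7.02) to background (4.12). The main limit is the range from 4.51 to 5.87, where genes are called by the choice of mark.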

Other observations

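Some genes outside the lists, chosen after their values were seen, stood among the brightest or bear on the state of the cells. Ifitm3, an interferon-induced membrane protein, read 10.50, 10.89 and 10.83. Msi2, an RNA-binding protein that HSCs need, read 10.71, 10.64 and 10.64. Mki67, the proliferation marker Ki-67, was high at 9.40, 9.08 and 9.40, beside Rrm1 and Rrm2, both subunits of ribonucleotide reductase, at 7.94 ± 0.82 and 7.42 ± 0.71. The other probe set of Rrm2 was middle at 6.05. The share of cells in cycle was not measured. Vmn1r233, a vomeronasal receptor of the reference family, read 12.18, 11.75 and 11.61; what its probes read was not tested.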
